A study of Mus musculus with 10 samples.

Results

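Guanylate-binding proteins (GBPs) and immunity-related GTPases (IRGs) are large GTPases whose genes are switched on by interferons. Of the 23284 genes in the deposited tables, 8 were followed here: the GBP genes Gbp2, Gbp3, Gbp6 and Gbp7, and the IRG genes Igtp, Irgm1, Irgm2 and Iigp1. They were chosen by family and by their measured log2 values over the 5 groups below, so these values are a description and carry no test. The study measured colorectal RNA in mice with colitis caused by dextran sodium sulfate (DSS), given microRNAs inside super carbonate apatite (sCA), a mineral nanoparticle carrier. The 10 libraries were from 7-week-old BALB/c mice and form 5 groups of 2. Normal mice were untreated and their tissue was taken on day 0. By the sample labels, the other 4 groups received 2% DSS and tail vein injections of sCA on days 1, 2 and 3. The sCA carried a negative-control miRNA (NC-miR), miR-29a or miR-29b. Tissue was taken on day 2 from one NC-miR group and on day 4 from the other NC-miR group, from the miR-29a group and from the miR-29b group. For the tissue taken on day 2 the sample labels list all 3 injections, so which of them those mice had is unclear. The NC-miR groups of day 2 and day 4 may therefore differ in injections and in time on DSS as well. Since normal mice had neither DSS nor injections, the DSS, the carrier, its cargo and the day cannot be told apart in any comparison with them. The labels do not say from how many animals each library came, so p-values measure the spread between these libraries only.

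GBPs are known for gathering on the membranes of bacteria and parasites inside cells, where they break up the compartment or the microbe itself and help bring its contents to the inflammasome. Effector IRGs such as Iigp1 act on parasite and bacterial vacuoles in a similar way, while the regulators Igtp, Irgm1 and Irgm2 sit on the cell's own membranes and hold the effectors inactive there. Interferon-gamma, through GAS elements in promoters, and type I and III interferons, through interferon-stimulated response elements (ISREs), both induce these genes. In the gut they are known from epithelial cells and macrophages alike. Bulk tissue RNA cannot tell more RNA per cell from more cells of a type that holds it.

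The genes sit in clusters. On GRCm38 (mm10), by RefSeq, Gbp7 (chr3:142530336-142550151), Gbp3 (chr3:142560016-142573213) and Gbp2 (chr3:142620663-142638008) follow one another on chromosome 3, with gaps of 9.9 kb and 47.4 kb. Gbp6 lies in the chromosome 5 cluster (chr5:105270702-105295871). Igtp (chr11:58199556-58207592) and Irgm2 (chr11:58214977-58222783) are 7.4 kb apart on chromosome 11, Irgm1 lies on the same chromosome (chr11:48865245-48871420). Iigp1 lies apart from these clusters, near another IRG gene, Gm4951.

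RefSeq promoters were available for 6 of the 8 genes: Gbp2, Gbp3, Gbp7, Igtp, Irgm1 and Irgm2. The ISRE core, searched as GAAA, any 2 bases and GAAA on both strands, was present in 6 of these 6 promoters and in 3.99% of the 27025 genes with a promoter in the table. Among other GBP, IRG and giant GTPase genes with a promoter, 8 of 11 had it too, so it is not particular to the genes followed here. The stretches around it are shown because this short element is what the promoters have in common. Each ends before the first base of its RefSeq gene, runs 5′ to 3′ on the gene's strand, and has the letters of the ISRE core matches in capitals.
Gbp7 (chr3:142530258-142530317, plus strand): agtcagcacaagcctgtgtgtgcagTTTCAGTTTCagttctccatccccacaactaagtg
Gbp3 (chr3:142559974-142560015, plus strand): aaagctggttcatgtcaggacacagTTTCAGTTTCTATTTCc
Gbp2 (chr3:142620579-142620638, plus strand): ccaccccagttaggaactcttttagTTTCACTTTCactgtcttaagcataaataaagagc
Irgm1 (chr11:48871421-48871475, minus strand): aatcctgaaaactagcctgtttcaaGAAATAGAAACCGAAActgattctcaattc
Igtp (chr11:58199497-58199555, plus strand): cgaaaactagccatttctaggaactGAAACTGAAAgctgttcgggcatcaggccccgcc
Irgm2 (chr11:58214888-58214947, plus strand): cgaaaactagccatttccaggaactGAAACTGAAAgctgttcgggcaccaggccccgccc

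The ISRE match began between 30 bases (Irgm1) and 64 bases (Irgm2) before the listed start. In the 3 chromosome 3 GBP genes it read on the opposite strand to that in the 3 IRG genes, and in Gbp3 and Irgm1 a second match overlapped the first. Gbp3 has 2 listed starts, and the match was before the upstream one. That start lies inside the RefSeq span given above, so the match is nearer to the first base of the span. Igtp and Irgm2 shared 244 of 265 aligned promoter bases, or 92.1%. The interferon-gamma element GAS, searched as TTCNNNGAA on both strands, was found in 3 of the 6 promoters (Gbp7, Igtp and Irgm2) and in 9.55% of genes. Among the other family genes with a promoter, 5 of 11 had it. A match is a run of letters and was not tested as a binding site.

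The injected miRNAs belong to the miR-29 family. RefSeq gives the following mature sequences, with the seed (bases 2 to 8) in capitals. They are shown because both miRNAs carry the same seed. Whether the injected oligonucleotides had exactly these letters is not stated in the sources used here.
mmu-miR-29a-3p: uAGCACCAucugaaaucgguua
mmu-miR-29b-3p: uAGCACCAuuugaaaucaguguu
The seed's match TGGTGCT occurred in the longest annotated 3′ UTR of 0 of the 8 genes and of 13.7% of 18420 genes, with median UTR lengths of 950 bases and 1016 bases. No match says only that these letters are not in these UTRs.

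Each deposited value is the log2 of a gene's signal in a library over a baseline for that gene, and the lowest value that several libraries repeat was read as a floor of undetected RNA. Between 12680 and 12940 genes lay above it in a library, and 13051 genes above it in both libraries of some group were tested together. Depth is unknown, since no counts were given, and levels cannot be compared between genes. All 8 GBP and IRG genes lay above their floor in 10 of 10 libraries, so none owed its place among the tested genes to a group where it was high. Of the colonocyte markers, 10 of 10 lay above their floor, in keeping with the tissue label. Of the 10 libraries, 2 stood apart from their replicate by over 3 log2 units in markers listed for another cell type. In NC-miR day 4 replicate 1, 3 squamous epithelium keratin and cornified-envelope genes averaged 5.24 log2 above normal, against 0.13 in replicate 2. In NC-miR day 2 replicate 1, the neutrophil list genes S100a8 and S100a9 averaged 4.32, against 1.29 in replicate 2. These were the only 2 of 6 neutrophil markers tested. Of the others, 3 lay at the floor in 10 libraries and Ngp in 9.

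Every value in the next 3 paragraphs is the log2 difference of a library from the mean of the 2 normal libraries of that gene, so that 1 is a doubling. Replicates are given in the order 1, 2.

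Among the GBP genes, Gbp2, known for coating the vacuole of Toxoplasma, lay at 0.1 and -0.1 in normal mice, 2.23 and 1.34 on NC-miR day 2, 1.28 and 0.7 on NC-miR day 4, 0.9 and 0.67 with miR-29a, and 0.81 and 0.46 with miR-29b. All 8 DSS libraries were above both normal ones, and both day 2 libraries were above all day 4 ones. Gbp3 had a wider range, with 0.04 and -0.04 in normal mice, 3.96 and 2.73 on NC-miR day 2, 1.65 and 1.14 on NC-miR day 4, 0.91 and 1.13 with miR-29a, and 0.85 and 1.3 with miR-29b. Its miR-29a and NC-miR day 4 libraries were nearly in contact, and its miR-29b libraries overlapped those of NC-miR day 4. Gbp7, known for bringing oxidase subunits to vacuoles, lay at -0.17 and 0.17 in normal mice, 3.04 and 1.78 on NC-miR day 2, 1.47 and 1.05 on NC-miR day 4, 0.76 and 0.96 with miR-29a, and 0.79 and 0.57 with miR-29b. Here all 4 miR-29 libraries were below both NC-miR day 4 libraries. Gbp6 lay at -0.11 and 0.11 in normal mice, 4.47 and 2.27 on NC-miR day 2, 1.67 and 0.87 on NC-miR day 4, 0.61 and 0.62 with miR-29a, and 1.13 and 1 with miR-29b. It had the greatest distance between the day 2 replicates of the 8 genes. Of its transcript's 50-base windows, 70.3% also occur in other genes of the tables, most of them in Gbp10, so reads could be split between those genes and its values are uncertain.

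The 3 regulators of the IRGM group had a common shape. Igtp, also called Irgm3, lay at 0.05 and -0.05 in normal mice, 3.76 and 2.47 on NC-miR day 2, 1.7 and 1.15 on NC-miR day 4, 0.74 and 1.07 with miR-29a, and 1.02 and 0.97 with miR-29b. Irgm2, its neighbour on chromosome 11, lay at 0.1 and -0.1, 3.25 and 2.06, 1.58 and 0.89, 0.51 and 0.87, and 0.62 and 0.82 in the same groups. Irgm1, known for its part in autophagy and in the survival of lymphocytes and stem cells, lay at 0.11 and -0.11, 2.76 and 1.6, 1.06 and 0.74, 0.41 and 0.53, and 0.46 and 0.49. In each of these 3 genes the day 2 libraries were highest, the NC-miR day 4 libraries next, the miR-29a and miR-29b libraries below those and intermingled, and the normal libraries lowest. Igtp shared 12.3% and Irgm2 7.3% of 50-base windows with other genes of the tables, and Irgm1 0.8%. In the GENCODE annotation the span of Irgm2 also covers Igtp, so some reads of this pair could be assigned to either.

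The effector Iigp1, also called Irga6, had the widest range of the 8 genes. It lay at 0.01 and -0.01 in normal mice, 5.07 and 2.96 on NC-miR day 2, 2.19 and 1.34 on NC-miR day 4, 1.54 and 1.87 with miR-29a, and 1.78 and 1.6 with miR-29b. Unlike in the regulators, its 4 miR-29 libraries lay between the 2 NC-miR day 4 libraries.

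**Figure D1:**
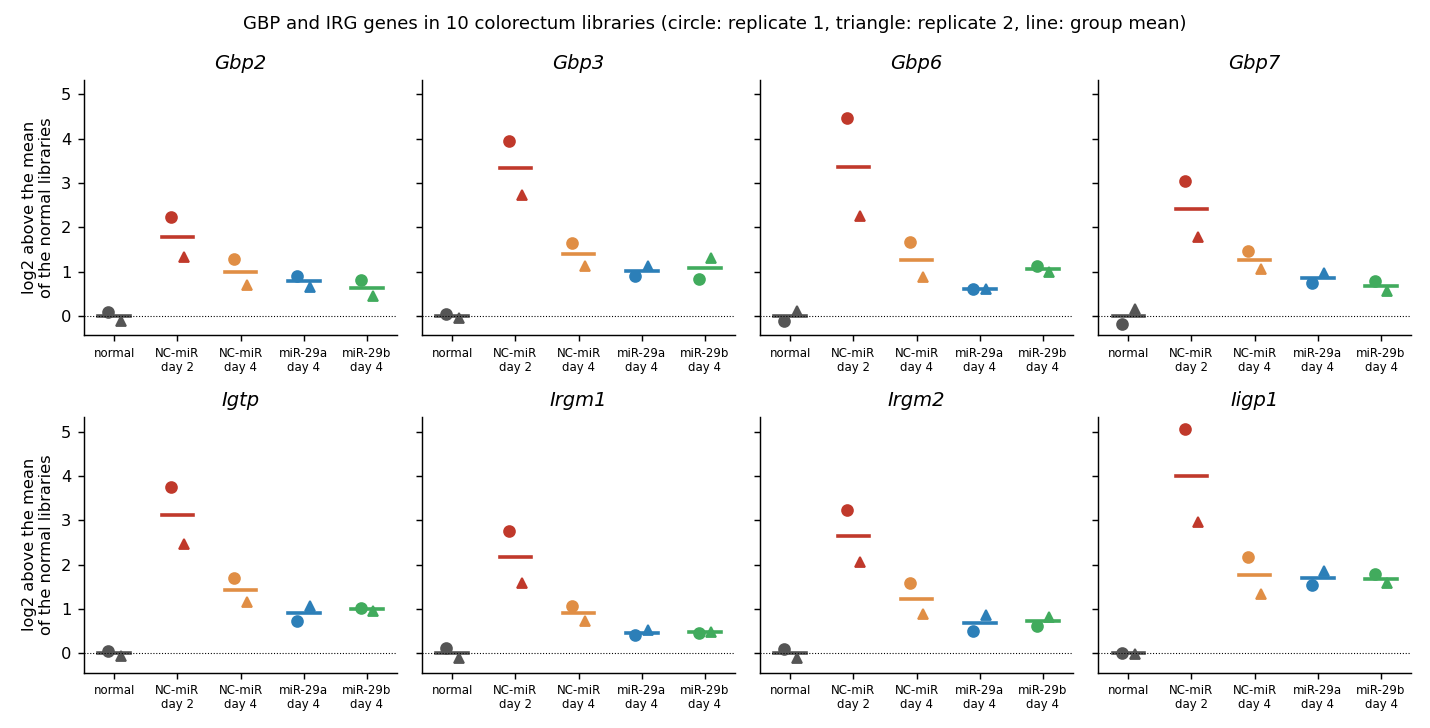
Each panel is 1 gene; the y axis is the log2 difference from the mean of the normal libraries, and the x axis gives the 5 groups. Circles are replicate 1, triangles replicate 2 and lines the means of 2 libraries; the day 2 libraries are the highest pair in every panel, reaching 5.07 for Iigp1, and replicate 1 is above replicate 2 there.

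On day 2 with NC-miR, the GBP and IRG genes were between 3.45-fold (Gbp2) and 16.1-fold (Iigp1) the normal mean. Iigp1 differed by 4.01 ± 0.58 on the log2 scale (limma standard error, 2 libraries a group, as in all values with ± below), Gbp6 by 3.37 ± 0.59 and Gbp3 by 3.34 ± 0.37. Igtp was 3.12 ± 0.37 higher, Irgm2 2.65 ± 0.37, Gbp7 2.41 ± 0.36, Irgm1 2.18 ± 0.32 and Gbp2 1.79 ± 0.31. The median over the 8 genes was 2.89, and over all 13051 genes tested it was -0.06. In the limma fit over all tested genes with Benjamini-Hochberg adjustment, 1.07% of genes were called higher at 0.05. All 8 GBP and IRG genes were among those called higher, from which nothing is read, since they were chosen with this contrast in view. Both day 2 libraries were above both normal ones in 8 of 8, as they were in 18.6% of all genes tested; with 2 libraries against 2, groups that do not overlap are common. Those calls rested on few libraries: 0 of the 8 were called without normal replicate 1 or without normal replicate 2, and only 2 without either miR-29b library, whose spread enters the fit. Without miR-29a replicate 2 there were 3 calls, and without miR-29a replicate 1 there were 5.

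The 2 day 2 libraries differed more from each other than the replicates of any other group. Replicate 1 was above replicate 2 in 8 of 8 genes, by 0.9 (Gbp2) to 2.21 (Gbp6) on the log2 scale. In replicate 1 Iigp1 was 33.6-fold, Gbp6 22.2-fold and Gbp2 4.71-fold the normal mean. In replicate 2 the same genes were 7.76-fold, 4.81-fold and 2.53-fold. Both libraries were thus above every other library for each gene, and the median over the 8 genes was 3.5 in replicate 1 and 2.16 in replicate 2. Replicate 1 of NC-miR day 4 was likewise above its replicate 2 in 8 of 8 genes, by 0.32 (Irgm1) to 0.84 (Iigp1), with medians of 1.62 and 0.97. The squamous genes that set that library apart moved with these values in that library, and their part in the difference was not tested. The miR-29a medians were 0.75 and 0.92 and the miR-29b medians 0.83 and 0.9, so these 4 libraries lay close together.

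**Figure D2:**
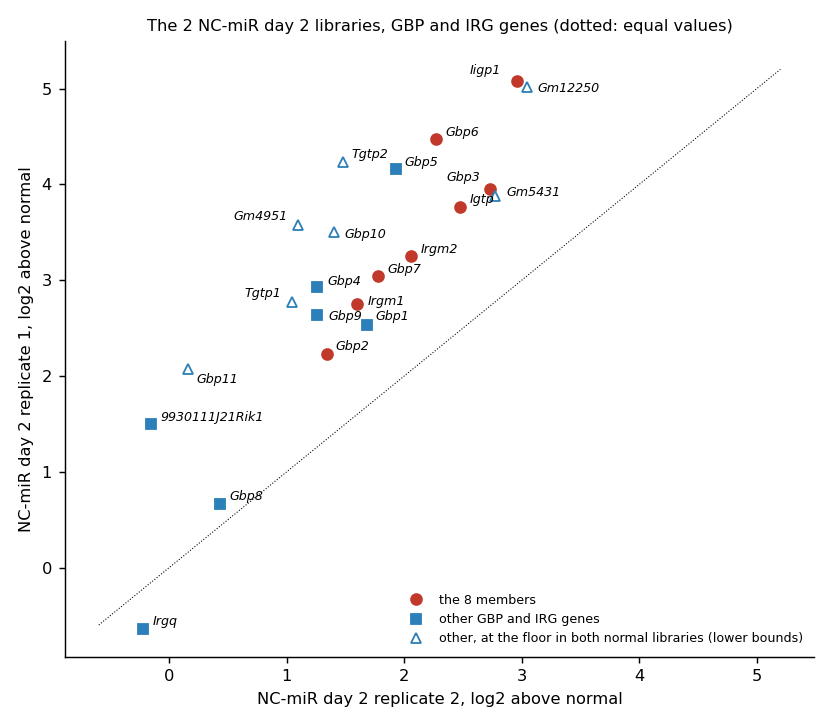
Each point is a GBP or IRG gene, with its log2 difference from the normal mean in NC-miR day 2 replicate 2 (x axis) and in replicate 1 (y axis); the dotted line marks equal values. The 8 genes (circles) all lie above the line, by 0.9 to 2.21; squares are other family members and open triangles those at the floor in both normal libraries, whose distances are lower bounds.

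On day 4 with NC-miR the 8 genes were between 1.87-fold (Irgm1) and 3.39-fold (Iigp1) the normal mean. The differences were 1.76 ± 0.58 for Iigp1, 1.42 ± 0.37 for Igtp, 1.40 ± 0.37 for Gbp3, 1.27 ± 0.59 for Gbp6, 1.26 ± 0.36 for Gbp7, 1.24 ± 0.37 for Irgm2, 0.99 ± 0.31 for Gbp2 and 0.90 ± 0.32 for Irgm1. Their median was 1.27, against -0.03 over all genes tested. Both libraries were above both normal ones in 8 of 8 genes, and in 20.4% of all genes tested. limma called 0.268% of all genes higher and 0 of these 8, of which 7 had an unadjusted p under 0.05. This comparison shares its normal libraries with the day 2 one, so the 2 are not independent.

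From day 2 to day 4 with NC-miR, Iigp1 was lower by a factor of 4.76, Gbp6 by 4.28, Gbp3 by 3.85 and Igtp by 3.23. Irgm2 was lower by a factor of 2.67, Irgm1 by 2.42, Gbp7 by 2.22 and Gbp2 by 1.74. On the log2 scale the differences ran from -2.25 ± 0.58 (Iigp1) to -0.80 ± 0.31 (Gbp2), with a median of -1.55 against 0.02 over all genes. Both day 4 libraries were below both day 2 libraries in 8 of 8 genes, and in 16.1% of all genes tested. limma called 0.00766% of all genes lower, which is 1 gene, and 0 of the 8, although 8 had an unadjusted p under 0.05. Without NC-miR day 2 replicate 2, leaving the higher day 2 library alone, the median was -2.17. Without replicate 1 the median was -0.91. On day 4 between 37.7% (Gbp6) and 55.4% (Gbp2) of the day 2 log2 difference from normal was left. Gbp2 had the smallest day 2 difference and kept the largest share, but the other genes did not keep that order throughout. Irgm1, at 2.18 on day 2, kept 41.4%, less than Iigp1, at 4.01, with 43.9%.

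**Figure D3:**
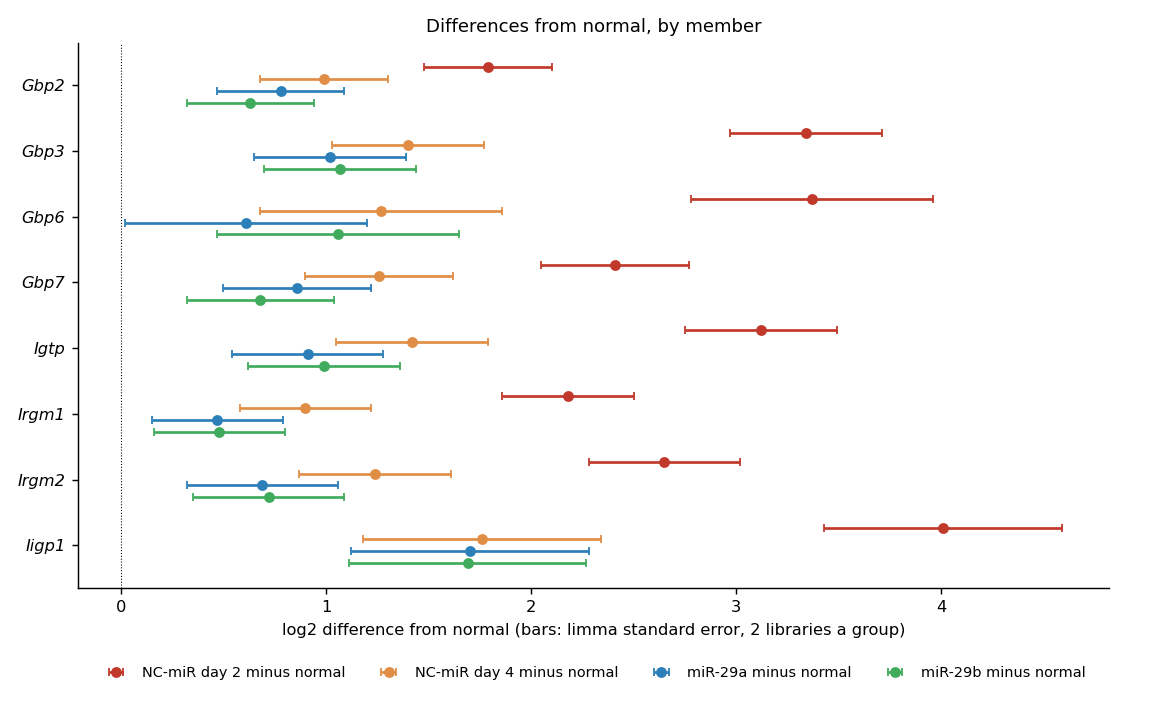
Each point is a gene's log2 difference of a group mean from the normal mean (x axis), with bars of 1 limma standard error, 2 libraries a group. The NC-miR day 2 points run from 1.79 to 4.01 and the 3 day 4 groups lie lower, between 0.47 and 1.76, with bars that overlap one another within each gene.

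With miR-29a the 8 genes were between 1.38-fold (Irgm1) and 3.25-fold (Iigp1) the normal mean, and with miR-29b between 1.39-fold (Irgm1) and 3.23-fold (Iigp1). The medians were 0.82 and 0.86 on the log2 scale, against -0.02 and -0.03 over all genes tested. In each group both libraries were above both normal ones in 8 of 8 genes, and in 21% (miR-29a) and 21.3% (miR-29b) of all genes tested. limma called 0.345% of all genes higher with miR-29a and 0.337% with miR-29b, and 0 of the 8 in each case, with 5 and 3 of them at an unadjusted p under 0.05.

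Set against NC-miR on the same day, both miR-29 groups had lower means in 8 of 8 genes, by under 2 standard errors in each. For miR-29a the differences were -0.66 ± 0.59 for Gbp6, -0.55 ± 0.37 for Irgm2, -0.52 ± 0.37 for Igtp, -0.43 ± 0.32 for Irgm1, -0.40 ± 0.36 for Gbp7, -0.38 ± 0.37 for Gbp3, -0.21 ± 0.31 for Gbp2 and -0.06 ± 0.58 for Iigp1. For miR-29b they were -0.58 ± 0.36 for Gbp7, -0.51 ± 0.37 for Irgm2, -0.43 ± 0.37 for Igtp, -0.42 ± 0.32 for Irgm1, -0.35 ± 0.31 for Gbp2, -0.32 ± 0.37 for Gbp3, -0.21 ± 0.59 for Gbp6 and -0.07 ± 0.58 for Iigp1. Both miR-29a libraries were below both NC-miR day 4 libraries in 6 of the 8 genes (not in Gbp2 or Iigp1), and both miR-29b libraries in 4 (Gbp7, Igtp, Irgm1 and Irgm2). Over all genes tested the share was 19.3% for miR-29a and 19.3% for miR-29b. limma called 0% of all genes lower, and none higher, in either comparison, although 996 and 1627 genes had an unadjusted p under 0.05, and none of these 8 was among them. Both comparisons share the NC-miR day 4 libraries. The medians were -0.42 for miR-29a and -0.39 for miR-29b, and without NC-miR day 4 replicate 1, the library with the squamous genes, they were -0.20 and -0.11. Without that library the miR-29a difference was 0.08 in Gbp2 and 0.36 in Iigp1, and the miR-29b difference was 0.19 in Gbp6 and 0.35 in Iigp1.

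miR-29a and miR-29b differed from each other by -0.45 ± 0.59 in Gbp6, 0.18 ± 0.36 in Gbp7, 0.15 ± 0.31 in Gbp2, and between -0.09 and 0.01 in the other 5 genes. The libraries of the 2 groups did not overlap in Gbp6, as in 39.1% of all genes tested in either direction, and overlapped in the other 7. limma called 0% of all genes, with 970 genes at an unadjusted p under 0.05. In order of group means, NC-miR day 2 came first, NC-miR day 4 next and normal last in 8 of 8 genes. miR-29a was above miR-29b in 3 genes (Gbp2, Gbp7 and Iigp1) and below it in 5, and these neighbours in the order were less than 1 standard error apart in 8 of 8 genes. The 8 genes followed one another across the libraries: the 28 pairwise Pearson correlations over 10 libraries ran from 0.941 to 0.995, and over the 8 libraries without NC-miR day 2 from 0.85 to 0.98. These describe libraries that share groups and baseline and whose depth is unknown.

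The other GBP genes in the tables are 7 in number and were higher on NC-miR day 2 as a rule, with a median of 2.09. Gbp1, which RefSeq now names Gbp2b and places between Gbp3 and Gbp2, rose by 2.11 ± 0.28 (limma adjusted p = 0.0147), and was the 1 gene of the 7 called. Its call was lost without normal replicate 1 or 2, with an adjusted p of up to 0.158, without the filter on genes at the floor (0.0963) and with only the 4 libraries compared (0.0705). Gbp5, known to promote inflammasome assembly, differed by 3.04 ± 0.59 (limma adjusted p = 0.0554), Gbp9 by 1.95 ± 0.43 (0.0843) and Gbp4 by 2.09 ± 0.48 (0.0935). Gbp10 lay at its floor in normal mice and differed by at least 2.45 (0.0953), with 73.9% of its windows shared. Gbp8 differed by 0.55 ± 0.17 (0.192) and Gbp11 by at least 1.12 (0.329). After quantile normalization limma also called Gbp5 (adjusted p = 0.00726), Gbp10 (0.0204), Gbp4 (0.0382) and Gbp9 (0.0436). On NC-miR day 4 the median of these 7 genes was 0.74 and limma called 0.

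Of 13 other genes of the IRG and giant GTPase families, 7 were tested, and 5 lay at the floor in 10 libraries. Gm12250, which RefSeq also names Irgb10 and which neighbours Igtp on chromosome 11, lay at its floor in normal mice and rose by at least 4.03 in log2 (limma adjusted p = 0.0208), or at least 16.3-fold. Gm5431, also named Irgb9b8, rose by at least 3.32 (0.00683), with 45.2% of its windows shared with other genes of the tables. Without normal replicate 1 or 2 both calls were lost, with adjusted p of up to 0.18 and 0.091, and that of Gm12250 was lost in 5 of the 10 ways of leaving out a library, the other 3 being miR-29a replicate 2 and each miR-29b library. Without the filter the adjusted p was 0.1 for Gm12250 and 0.082 for Gm5431, and with only the 4 libraries compared it was 0.0872 for Gm12250. Tgtp1 (Irgb6) differed by at least 1.90 (limma adjusted p = 0.0976), Tgtp2 by at least 2.85 (0.112) and Gm4951 by at least 2.34 (0.148), and all 3 were called after quantile normalization, with limma adjusted p of 0.00742, 0.0357 and 0.0357. Tgtp1 and Tgtp2 share 91.4% and 90.6% of their windows, mostly with each other, so reads may be split between them. Irgq differed by -0.43 ± 0.18 (0.314) and 9930111J21Rik1 by 0.67 ± 0.46 (0.539). On NC-miR day 4 limma called 0 of the 7, and their median was 0.24, compared with 2.34 on day 2. Both medians are the values of Gm4951. It lay at its floor in both normal libraries and in 1 NC-miR day 4 library, so both medians depend on the floor.

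Upstream of these genes, the interferon-gamma gene Ifng was at the floor in 10 of 10 libraries. On NC-miR day 2 limma called none of the receptor, kinase and regulator genes of that pathway that follow: the feedback inhibitor Socs1 differed by 1.48 ± 0.44 (limma adjusted p = 0.177), the receptor chains Ifngr1 by 0.33 ± 0.15 (0.343) and Ifngr2 by 0.10 ± 0.15 (0.811), and the kinases Jak2 by 0.18 ± 0.14 (0.587) and Jak1 by -0.02 ± 0.15 (0.961). The factors Irf1 and Irf8 differed by 0.19 ± 0.15 (0.589) and -0.21 ± 0.18 (0.642).

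The type I and III interferon genes Ifnb1, Ifna4, Il28a and Il28b were also at the floor in 10 libraries. Of the 8 tested genes of that pathway, 3 were called higher on NC-miR day 2 and 0 lower. Irf7, the factor that amplifies type I interferon, rose by 2.97 ± 0.29 (limma adjusted p = 0.00432), and the transcription factors Irf9 and Stat2 rose by 2.30 ± 0.25 (0.00646) and 2.08 ± 0.30 (0.0192). The receptor chain Ifnar2 differed by 0.44 ± 0.20 (0.342). Irf7 alone was called on NC-miR day 4, at 1.88 ± 0.29 (limma adjusted p = 0.0475), a call lost in 9 of the 10 ways of leaving out a library. The day 2 call of Irf7 was lost without normal replicate 2 (limma adjusted p = 0.0666), that of Irf9 without either normal library, and that of Stat2 in 5 of the 10 ways. Without the filter all 3 day 2 calls were lost, with limma adjusted p of 0.0595 for Irf7, 0.0694 for Irf9 and 0.1 for Stat2, and with only the 4 libraries compared Irf9 (0.0558) and Stat2 (0.0704) lost theirs. The day 4 call of Irf7 was also lost in every such setting but median centring and robust variances, with an adjusted p of 0.0662 to 0.14.

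Other interferon targets were counted beside the GTPases. Of 17 interferon-gamma targets outside the GTPases, limma called 4 higher on NC-miR day 2 and 0 lower, with a median of 1.17. The peptide transporter Tap1 rose by 1.71 ± 0.20 (limma adjusted p = 0.00833), the MHC class I light chain B2m by 1.38 ± 0.17 (0.00848), the immunoproteasome subunit Psmb9 by 1.06 ± 0.17 (0.0317) and the ubiquitin-like modifier Ubd by 0.84 ± 0.14 (0.0376). Tap1 and B2m lost their calls without either normal library, B2m also without NC-miR day 2 replicate 1, and Psmb9 and Ubd in 7 and 9 of the 10 ways of leaving out a library. Without the filter all 4 calls were lost (limma adjusted p = 0.0694 for Tap1, 0.0591 for B2m, 0.0999 for Psmb9 and 0.0847 for Ubd), and with only the 4 libraries compared Tap1 (0.0552), Psmb9 (0.0937) and Ubd (0.134) lost theirs. On NC-miR day 4 the median of these 17 genes was 0.26 and 0 were called. Of 16 antiviral genes known from type I interferon, 12 were called higher on NC-miR day 2, with a median of 3.97, and 5 on NC-miR day 4 (Isg15, Oas3, Oasl2, Rtp4 and Xaf1), with a median of 2.42. Oasl2 rose by 5.12 ± 0.39 (limma adjusted p = 0.00139), Isg15 by 5.10 ± 0.45 (0.00275), Xaf1 by 3.54 ± 0.31 (0.00275) and Bst2 by 2.81 ± 0.25 (0.00275). On day 2 Oasl2 and Bst2 were called whichever library was left out, while Isg15 and Xaf1 lost their calls without normal replicate 2, at 0.0545 and 0.0507, and Isg15 also without the filter (0.0549). The day 4 calls were weaker: leaving out 1 library lost that of Oasl2 in 3 of 10 ways (without either normal library or NC-miR day 4 replicate 1, up to 0.122) and those of Isg15 and Xaf1 in 8 of 10 ways each (all but those leaving out a day 2 library, up to 0.247 and 0.265). The GTPase median lay between those of these lists on both days, and no difference between lists was tested. Against NC-miR day 4 the antiviral median was -0.99 with miR-29a and -0.58 with miR-29b, the interferon-gamma target median was 0.02 and 0.19, and limma called 0 genes of either list.

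Genes that work beside the GTPases gave no call. Of 13 tested genes of ATG8 conjugation and its cargo adaptors, which load IRGs and GBPs onto vacuoles, limma called 0 on either day, with medians of -0.05 and -0.05. The smallest p on day 2 was that of the adaptor Tax1bp1, at 0.46 ± 0.15 (limma adjusted p = 0.205), followed by Map1lc3a at -0.32 ± 0.15 (0.373). Of 7 tested inflammasome genes, 0 were called, with a median of 0.12 on day 2 and -0.11 on day 4. Casp4, named Casp11 in older work, is the caspase that senses bacterial lipopolysaccharide together with GBPs. On day 2 it differed by 0.83 ± 0.23 (limma adjusted p = 0.156), and Casp1 by 0.59 ± 0.17 (0.162). Aim2 differed by -0.35 ± 0.16 (limma adjusted p = 0.349) and Il18 by -0.53 ± 0.30 (0.443). Of the 7 genes, 4 were higher and 3 lower on day 2.

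**Figure D4:**
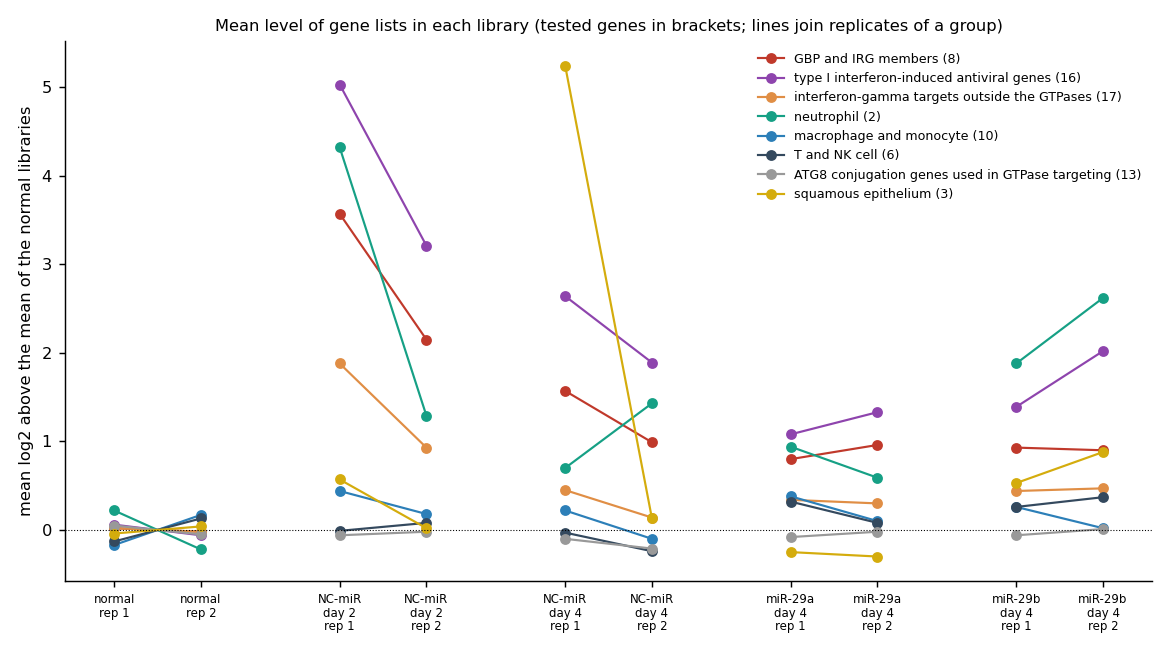
The y axis is the mean log2 difference from the normal libraries over the tested genes of each list (numbers in brackets), and the x axis gives the 10 libraries; lines join the replicates of a group. The GBP and IRG genes reach 3.57 and 2.15 on NC-miR day 2 and 0.8 to 1.57 on day 4; the T and NK cell and macrophage lists stay between -0.24 and 0.44, and the squamous list reaches 5.24 in 1 library.

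Markers of other cell types moved by differing amounts. The mean of 6 tested T and NK cell markers ran from -0.24 to 0.37 over the 8 DSS libraries, with Cd8a and Prf1 at the floor in 10 of 10 libraries. The mean of 10 macrophage and monocyte markers ran from -0.10 to 0.44 and was highest on NC-miR day 2 replicate 1, where the GTPases were also highest. That highest mean rested largely on Fcgr1, an Fc receptor of macrophages that interferon is known to induce. The value of Fcgr1 was 2.27 in that library, against a normal mean of -0.90. Fcgr1 differed by 2.21 ± 0.55 on day 2 (limma adjusted p = 0.119), close to the value of Irgm1. Of the 10 markers, 6 had a higher group mean on day 2 and 4 a lower one, with a median difference of 0.08. Of 6 neutrophil markers, 2 were tested. S100a8 and S100a9 averaged 4.32 and 1.29 in the day 2 libraries and 0.59 to 2.62 in the day 4 libraries, while Csf3r, Cxcr2 and Mmp9 were at the floor in 10 libraries. Neither S100a8 (limma adjusted p = 0.183) nor S100a9 (0.165) was called on day 2. B and plasma cell markers averaged -2.23 and -1.07 on day 2 and -1.99 to -0.70 on day 4. Adipocyte markers (5 tested) averaged -0.67 and 0.67 in the normal libraries, 1.42 and 0.93 on NC-miR day 2, 1.08 and 0.5 on NC-miR day 4, 1.63 and 0.03 with miR-29a, and 0.11 and 1.47 with miR-29b. Their group means were above normal in 5 of 5 genes in each DSS group, and their replicates were split in the normal, miR-29a and miR-29b groups, where those of the GTPases were close. Colonocyte markers averaged 0.01 and 0.21 on day 2 and 0.28 to 0.85 on day 4. In the neutrophil genes (upward) and the B cell genes (downward) day 2 replicate 1 was farther from normal than replicate 2, as it was in the GTPases, and the part of these cells, and of adipocytes, in the GTPase values was not tested.

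Of 13043 other tested genes, those most like the mean profile of the 8 over the 10 libraries, by Pearson correlation, included I830012O16Rik (0.9913), Gbp1 (0.9876), Ube2l6 (0.9865), Parp14 (0.9864), Gbp5 (0.9831), Cmpk2 (0.9829), Dtx3l (0.9802), Gm12250 (0.979) and Znfx1 (0.9776). In all, 52 genes had a correlation above 0.95, and the median over the 13043 was -0.11. I830012O16Rik, which RefSeq names Ifit3b, was 30.7-fold the normal mean on NC-miR day 2 and Ube2l6, the enzyme that conjugates ISG15, 4.82-fold. Cmpk2, a mitochondrial nucleotide kinase, differed by 3.70 on the log2 scale. Parp14 (4.09-fold), an ADP-ribosyltransferase, and Dtx3l (2.94-fold), a ubiquitin ligase, were nearer to the lower GTPases. These genes were picked for their likeness across libraries that share groups and baseline, so their values are a description.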

How the data were processed

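RNA-seq libraries (stranded TruSeq mRNA kit, per the labels' protocols) from mouse colorectum were measured in 5 groups of 2. Per the submitters' processing notes, the authors used Cuffnorm 2.2.1, SAMtools 0.1.19, TopHat2 2.0.13 and Bowtie2 2.2.3 on mm10; parameters and use of strand are not given in the sources used here. The deposited column is headed FPKM but holds log2 values: ratios to a baseline of each gene, with 9322 of 23284 features at 1 constant in each library. Base 2 was settled from the values: converted with it, 99.5% of 2146 values in 9 libraries gave FPKM ratios on a grid of 6 significant digits (tolerance 0.1 of a step), against 19.7% with base e. What the floor is in FPKM is unknown, so no levels are given. A floor value is the gene's lowest value, less the library's constant, shared by at least 2 libraries within 2e-05.

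The 13051 features that exceeded their floor in each of the 2 libraries of some group were fitted with limma 3.58.1 in R 4.3.3 (5 group means, 10 libraries, 5 residual degrees of freedom, 3.26 prior degrees of freedom), with Benjamini-Hochberg adjustment over all 13051 and a threshold of 0.05; the median standard error was 0.18. The fit was tested on simulated data. Promoters, miRNAs, overlaps of 50-base windows and UTR matches were computed in Python 3.11.15 from RefSeq (GRCm38.p6) and GENCODE. Identical library pairs numbered 0.

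The 8 genes, the gene lists and the tests were chosen with earlier results of these data known, so they are no independent evidence. The text names all GBP, IRG and type II interferon list genes, the 4 of smallest day 2 p in each other pathway list, and the 10 most like the 8; 1 gene under this rule is not reported here. Genes of those lists that are given beyond this rule, and Fcgr1, S100a8 and S100a9, were named after their values were seen. Alternatives were no filter, median centring, quantile normalization, the 4 libraries compared alone, robust eBayes, the replicate number as a block, leaving out each library, and, for the promoter motifs, the bases before the start alone.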

Additional observations from a re-analysis of the deposited data

How the results depend on the processing

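Over the alternatives for the 8 genes' own differences, 940 values kept direction and side of the threshold, 56 lost and 11 gained a call, and 17 changed sign. In the main fit the 8 genes were called on NC-miR day 2 alone. All 56 lost calls were therefore day 2 ones, and most of the 940 values had no call to lose. Without the filter, features called numbered 28 on day 2, 22 on NC-miR day 4, 14 in the miR-29a and 29 in the miR-29b group against normal, and 1 for each miR-29 group against NC-miR day 4, with 0 of the 8 called on day 2; by construction the features added were at the floor in at least 1 library of every group. With only the 4 libraries compared, 44 features and 0 of the 8 were called on day 2. Against normal, 43 features were called with miR-29a and 70 with miR-29b, with Iigp1 the 1 of the 8 in each. Against NC-miR day 4, 2 features were called for miR-29a and 4 for miR-29b, and 3 were called between the miR-29 groups. Fewer samples enter each such fit. Quantile normalization lowered the day 2 median to 2.07 and moved the day 2 to day 4 median to -0.94, with 30 (miR-29a) and 23 (miR-29b) features called against normal, 1 from day 2 to day 4, and 1 for each miR-29 group against NC-miR day 4; robust eBayes called 1 from day 2 to day 4. The cause was not tested.

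The labels give replicate numbers but do not say whether these pair libraries. Deviations of same-numbered libraries correlated between -0.24 and 0.11 across groups. With so few replicates this cannot settle whether same-numbered libraries belong together. With the replicate block, 30 features were called for NC-miR day 4 and 35 for miR-29b against normal, and 138 on day 2, with 8 of the 8 genes among them; Gbp5 gained a call on day 2 (limma adjusted p = 0.0469), Ubd lost its call there (0.0677), and Irf7 (0.0709), Isg15 (0.065) and Xaf1 (0.065) lost theirs on NC-miR day 4.

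Leaving out 1 library at a time gave 17 to 276 features called on day 2, 10 to 86 for NC-miR day 4, 11 to 35 for the miR-29a group and 9 to 48 for the miR-29b group against normal, 0 to 107 from day 2 to day 4, 0 to 52 (miR-29a) and 0 to 46 (miR-29b) against NC-miR day 4, and 0 to 7 between the miR-29 groups. Of the 8, 0 to 8 were called on day 2, 0 to 1 on NC-miR day 4 (Igtp, without either day 2 library) and 0 to 7 from day 2 to day 4. Medians ran from 2.16 to 3.5 (day 2), 0.97 to 1.62 (NC-miR day 4), 0.75 to 0.92 (with miR-29a) and 0.83 to 0.9 (with miR-29b) against normal, -2.17 to -0.91 from day 2 to day 4, -0.62 to -0.2 and -0.63 to -0.11 against NC-miR day 4, and -0.16 to 0.06 between miR-29a and miR-29b.

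Signs changed in small differences. With 1 library left out at a time, miR-29a against NC-miR day 4 ran from -0.5 to 0.08 in Gbp2 and -0.48 to 0.36 in Iigp1, and miR-29b from -0.61 to 0.19 in Gbp6 and -0.5 to 0.35 in Iigp1, the upper ends without NC-miR day 4 replicate 1. Between the miR-29 groups the range was -0.03 to 0.32 in Gbp2, -0.28 to 0.17 in Gbp3, -0.25 to 0.08 in Igtp, -0.06 to 0.05 in Irgm1, -0.21 to 0.14 in Irgm2 and -0.15 to 0.18 in Iigp1, which was -0.06 with quantile normalization. On day 2 it was -0.15 to 1.49 in 9930111J21Rik1, -0.1 to 0.3 in Ifngr2, -0.42 to 0 in Irf8 and -0.1 to 0.05 in Jak1, which was 0.03 with median centring and 0.02 with quantile normalization.

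With only the bases before the start, the ISRE core was in 6 of 6 promoters and 3.46% of genes, and GAS in 3 of 6 and 8.13%. Of the 11 other family genes with a promoter, 7 had the ISRE core there and 5 had GAS. Groups of 2 libraries of unknown depth limit all of these values, and a gene near its floor is measured least well.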
